A study of Rattus norvegicus with 6 samples.

Results

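The *Id* genes (*Id1*, *Id2*, *Id3* and *Id4*) encode the helix-loop-helix inhibitors of basic helix-loop-helix (bHLH) transcription factors, and their mRNA was measured here in cortical neural progenitors of the rat. The members were chosen by name, and all 4 of them are present once in each table, out of 17337 gene names. The progenitors came from cortices of Sprague Dawley rats at embryonic day 14 of either sex, were grown with bFGF and EGF at 20 ng/ml each, and were collected after the second passage without any other treatment. PolyA-selected RNA of 2 biological replicates, A and B, was sequenced as 2 technical libraries each, named A1, A2, B1 and B2. Since the study has 1 condition, the comparisons below are among genes and between replicates, and no test between groups was possible. How many embryos went into a culture is not given in the sources used here.

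Id proteins carry the helix-loop-helix domain through which bHLH factors pair, but lack the basic region that contacts DNA. They bind the widely expressed E proteins, the common partners of proneural factors, and the resulting pairs cannot bind DNA. In the embryonic cortex they are known for holding progenitors undifferentiated, and BMP signalling through Smad proteins is a well known inducer of *Id* transcription. *Id1*, *Id2* and *Id3* are classic BMP targets. *Id4* is the member most tied to neural stem cells and astroglia.

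DNA before the annotated starts of 3 members is given here, so that the letters near the starts of these related genes can be set side by side. The sequences are those of RefSeq on the GRCr8 build, another build than the rn6 of the expression tables, and cover the 210 bases that end 41 bases before the annotated start, on the strand of the gene. Capitals mark the letters of a TATA box (TATAA), of a variant of it (ATAAAAG, which can overlap the first) and of a CCAAT box, each on either strand. The regions are chr3:161671314-161671523 on the plus strand for *Id1*, chr6:47471036-47471245 on the minus strand for *Id2* and chr5:153656041-153656250 on the plus strand for *Id3*.
Id1: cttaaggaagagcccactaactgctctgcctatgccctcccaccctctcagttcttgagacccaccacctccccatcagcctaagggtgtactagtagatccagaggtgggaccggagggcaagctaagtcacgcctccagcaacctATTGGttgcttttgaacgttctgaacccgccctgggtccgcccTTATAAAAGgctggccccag
Id2: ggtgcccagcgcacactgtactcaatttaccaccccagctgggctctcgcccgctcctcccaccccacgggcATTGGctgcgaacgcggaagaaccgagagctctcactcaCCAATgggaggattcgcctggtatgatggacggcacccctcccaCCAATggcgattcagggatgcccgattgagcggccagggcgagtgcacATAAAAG
Id3: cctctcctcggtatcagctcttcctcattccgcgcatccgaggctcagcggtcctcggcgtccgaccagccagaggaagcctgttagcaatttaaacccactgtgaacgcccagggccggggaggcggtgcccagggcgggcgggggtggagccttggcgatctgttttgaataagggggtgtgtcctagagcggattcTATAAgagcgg

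In *Id1* the TATAA letters begin 59 bases before the annotated start, and they are part of the longer capital run, which also reads TATAA on the other strand. *Id2* has no TATAA in the window and holds ATAAAAG, without the leading T, from 47 bases before the start. *Id3* holds TATAA from 51 bases before the start. Of 33469 windows of the same length before RefSeq starts, 20.3% hold TATAA and 4.07% hold ATAAAAG on either strand. *Id2* has 3 CCAAT matches and *Id1* has 1, against 30.1% of all windows with at least 1, and *Id3* has none. The GC box letters GGGCGG stand in *Id1* and *Id3* and in 25.8% of all windows. GGCGCC, a motif of Smad proteins of the BMP pathway, is in none of the 3 windows and in 7.0% of all, and the shorter Smad letters GTCTG are likewise in none and in 37.8% of all. This says only that these letters are not in this stretch. The E box letters CANNTG, which bHLH pairs bind, stand in the window of *Id2* and in 59.5% of all windows. The annotated start of *Id4* is the first base of an ATG. Whether this is the translation start was not tested, and the bases before it, which may hold leader sequence, were neither printed nor searched. FPKM is scaled to the annotated transcript length, and the effect of the annotated length on the level of *Id4* was not tested.

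The mRNA level is given as FPKM, fragments scaled to transcript length and library depth, which allows levels of different genes to be compared. *Id3*, the most abundant member, is annotated on the forward strand of rn6 chromosome 5 between positions 154489603 and 154491172. The libraries A1 and A2 gave 1111 and 1216 FPKM, and B1 and B2 gave 1208 and 1109 FPKM. The ranges of A and B overlapped almost wholly, and the mean was 1161 ± 3.36 FPKM (SD, n = 2 biological replicates). This SD is smaller than the distance between technical libraries of either replicate, so it understates the spread of the measurement. *Id3* held rank 67 of the 17524 rows of gene name and position listed in all 4 tables, within the top 0.382%. It stood between the alpha-tubulin gene *Tuba1a* at 1164 FPKM and *Ptma*, the prothymosin gene, at 1130 FPKM. In the single libraries its rank was 53, 60, 77 and 76.

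*Id1* is on the forward strand of chromosome 3, between positions 148215588 and 148216715. It had 334 and 361 FPKM in A1 and A2 and 546 and 324 FPKM in B1 and B2. The high value was in 1 library of replicate B, while the other library of that replicate was the lowest of the 4. The mean was 391 ± 61.8 FPKM (SD, n = 2), at rank 219 by the mean and between 163 and 275 in single libraries. Its neighbours in rank were *Psma7*, a proteasome subunit gene, at 392 FPKM and *Marcks*, which encodes an actin-binding substrate of protein kinase C, at 389 FPKM.

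*Id2* is on the reverse strand of chromosome 6, between positions 44360077 and 44361908. It had 172.8 and 174.0 FPKM in A1 and A2 and 174.7 and 120.9 FPKM in B1 and B2. A1, A2 and B1 were nearly equal and B2 alone was lower. The mean was 161 ± 18.1 FPKM (SD, n = 2), at rank 620.

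*Id4* is on the reverse strand of chromosome 17, between positions 16692557 and 16695126. It had 103 and 110.1 FPKM in A1 and A2 and 71.6 and 58.3 FPKM in B1 and B2. Both libraries of B lay below both of A, and *Id4* was the only member without overlap between the replicates. The mean was 85.8 ± 29.4 FPKM (SD, n = 2), at rank 1270 by the mean and from 979 to 1870 in single libraries.

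No other listed gene overlaps a member on either strand in the tables. The nearest one, *Cox4i2*, is 17831 bp from *Id1*. The coverage, which is the mean read depth over the gene, was lowest for *Id4* in B2 at 399 and highest for *Id3* in B1 at 29423. Every member thus had a coverage of 399 or more in every library, B2 included. The effect of depth on the values was not tested.

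**Figure D1:**
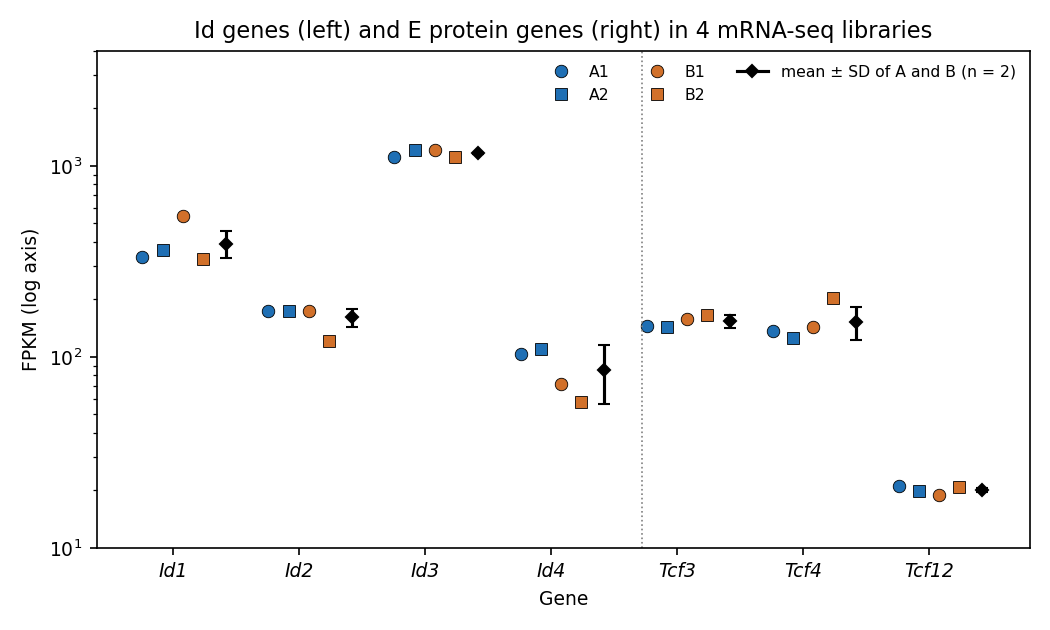
FPKM on a log axis of the 4 *Id* genes and the 3 E protein genes. Circles are the first and squares the second technical library of replicate A (blue) and B (orange), and diamonds with bars are the mean ± SD of the biological replicates (n = 2). *Id3* lies near 1161 FPKM in all libraries, and *Id4* is the only *Id* gene whose orange points both lie below the blue ones.

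The order *Id3*, *Id1*, *Id2*, *Id4* was the same in 4 of 4 libraries. The lowest library of each member lay above the highest library of the next, so each neighbouring pair was apart by more than its spread. *Id3* exceeded *Id1* between 2.21-fold in B1 and 3.42-fold in B2. *Id1* exceeded *Id2* between 1.93-fold in A1 and 3.12-fold in B1. *Id2* exceeded *Id4* between 1.58-fold in A2 and 2.44-fold in B1. The closest pair was therefore *Id2* and *Id4* in replicate A, and the span from *Id3* to *Id4* ran from 10.8-fold in A1 to 19.0-fold in B2.

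The members summed to 1720 and 1861 FPKM in the libraries of A and to 2000 and 1613 FPKM in those of B. The highest and the lowest sum thus both belonged to replicate B, and the means of A and B were 1791 and 1806 FPKM. The family made up 0.302 ± 0.00570% (SD, n = 2) of the TPM of a library. *Id3* supplied 64.8% (64.9% in A and 64.6% in B) of the summed *Id* FPKM, with 60.4% in B1 and 68.8% in B2 as the extremes. *Id1* supplied 21.5 ± 3.03% and *Id2* 8.91 ± 1.12% of this sum. The share of *Id4* was 5.99% in A1 and 5.91% in A2, against 3.58% in B1 and 3.62% in B2, so the libraries of a replicate agreed closely and the replicates were apart.

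Before replicates are compared, the state of the libraries has to be given. Depth, read as the coverage that corresponds to 1 FPKM, was between 22.7 and 24.4 in A1, A2 and B1 and 6.83 in B2, which is 28.1% of the deepest library. The 8 neural progenitor markers, among them *Sox2*, *Nes* and *Pax6*, all averaged 10 FPKM or more, as the label of the cells would have it. Their sum was 21022 and 23123 FPKM in A and 10082 and 10885 FPKM in B, most of it from *Fabp7*. Without *Fabp7* the sum was 4222 and 4566 FPKM in A and 3562 and 5400 FPKM in B, and *Vim* made up most of this sum. Of the 8 markers, 4 were lower in B without overlap (*Sox2*, *Sox9*, *Fabp7* and *Hes5*) and 4 overlapped, beside 32% of all genes lower without overlap, and the median difference of B minus A was -0.39 on the log2(FPKM + 1) scale. By the rule given below 2 of them, *Fabp7* and *Hes5*, were counted as lower in B, beside 1.42% of all genes. Neuron markers summed to 139 to 179 FPKM over the 4 libraries, of which *Tubb3* averaged 118 FPKM. Of the 5 neuron markers at 1 FPKM or more, 3 were lower in B without overlap, beside 32% of all genes, and 2 overlapped. The median difference of these 5 was -0.35. The markers of the oligodendrocyte lineage summed to 80.7 and 82.9 FPKM in A and 169.6 and 115 FPKM in B. Most of that gap was *Pdgfra*, with 9.29 FPKM in A and 59.4 FPKM in B on average, whereas *Olig2* overlapped and *Sox10* averaged 0.371 FPKM in A and 0.146 FPKM in B. Which cells the *Pdgfra* mRNA came from was not tested. Mesenchymal and meningeal markers (*Col1a1*, *Col1a2*, *Col3a1*, *Lum*, *Dcn*, *Foxc1* and *Twist1*) summed to 623 to 638 FPKM in the libraries of A and to 2450 to 2956 FPKM in those of B. All 7 of them were counted as higher in B by the rule given below, beside 4.78% of all genes, and none was at 0 in any library. The endothelial markers, of interest because *Id1* and *Id3* are also active in endothelium, summed to between 0.670 FPKM in A1 and 2.37 FPKM in B2, and 0 of 5 reached a mean of 1 FPKM. The 4 microglial markers summed to at most 1.64 FPKM, with *Cx3cr1* listed at 0 in 3 of the 4 libraries. In bulk RNA, fewer cells of a type and less RNA per cell cannot be told apart.

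Replicates A and B were compared on the log2(FPKM + 1) scale, on which genes of low level appear less changed than they are. The difference of B minus A was -0.01 for *Id3*, 0.32 for *Id1*, -0.23 for *Id2* and -0.70 for *Id4*, and its median over the 10481 genes that averaged 1 FPKM or more was -0.03. A gene was counted as differing when the replicate means were apart by at least 1 on this scale and the libraries of A and B did not overlap. Of the *Id* genes 0 of 4 met this, against 6.2% of all 10481 genes. By the lack of overlap alone, *Id4* was the only 1 of the 4, lower in B, where 32% of all genes were lower in B without overlap and 28.1% higher. The replicate means of *Id4* were 65.0 FPKM in B and 107 FPKM in A.

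For *Id1* and *Id2* the direction rested on 1 library. Without B1, the difference of *Id1* went from 0.32 to -0.10, and without B2 it was 0.65. Without B2, the difference of *Id2* went from -0.23 to 0.01. *Id4* stayed lower in B with any 1 library left out, between -0.86 without B1 and -0.57 without B2. The difference of *Id3* took both signs and never exceeded 0.07 in size.

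**Figure D2:**
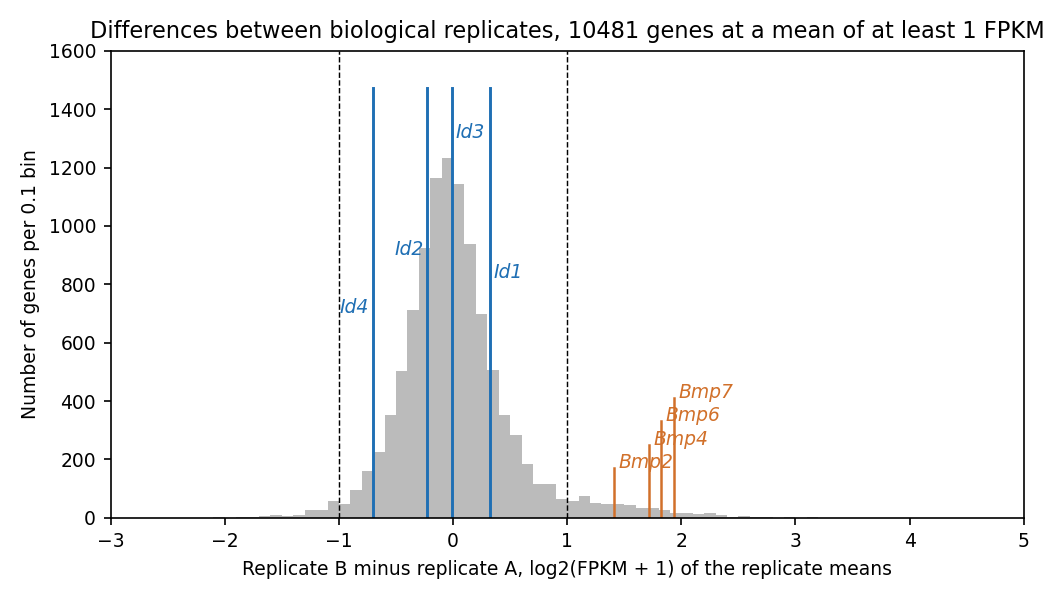
Histogram of the difference between replicates B and A in log2(FPKM + 1) for 10481 genes (bins of 0.1), with blue lines at the *Id* genes, orange lines at the 4 BMP ligand genes counted as differing and dashed lines at the threshold of 1 in either direction. The *Id* genes lie between -0.70 and 0.32 and these 4 ligand genes, drawn because they passed the threshold, from 1.41 to 1.93, while *Bmp5*, the remaining ligand gene tested, was at 0.82 and is not drawn. The heights of the lines carry no value.

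Technical libraries were compared in the same way. All 4 *Id* genes were lower in B2 than in B1, by -0.75 for *Id1*, -0.53 for *Id2*, -0.29 for *Id4* and -0.12 for *Id3*, while 50.9% of all genes were lower in B2. The gap reached 0.5 in size for *Id1* and *Id2*, and did so for 17.4% of all genes. Between A1 and A2 no member was apart by 0.5, and 2.65% of all genes were. The largest gap of a member there was 0.13, for *Id3*.

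The E proteins are the partners that Id proteins take away from other bHLH factors, and all 3 of their genes were measured. *Tcf3*, which encodes E12 and E47, had 146 and 144 FPKM in A1 and A2 and 157 and 166 FPKM in B1 and B2. *Tcf4*, which encodes E2-2, had 137 and 126 FPKM in A and 144 and 203 FPKM in B. *Tcf12*, which encodes HEB, had a mean of 20.1 ± 0.42 FPKM (SD, n = 2). *Tcf3* and *Tcf4* were thus close to the level of *Id2*, and their libraries in B lay above those in A, by 0.16 and 0.40 on the log2(FPKM + 1) scale, as did those of 28.1% of all genes.

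The sum over the *Id* genes exceeded the sum over the E protein genes 5.66-fold and 6.43-fold in A1 and A2, and 6.25-fold and 4.14-fold in B1 and B2. The mean ratio was 5.62 ± 0.601 (SD, n = 2), and the value of B2 was the lowest. Without *Id3* the ratio was 2.00 ± 0.165, from 1.29 in B2 to 2.48 in B1. These are ratios of mRNA, and protein was not measured.

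Among 23 proneural and other tissue-specific bHLH genes, the factors that need E proteins, 22 are listed in the tables and 10 averaged 1 FPKM or more. *Olig1*, a factor of the oligodendrocyte lineage, had 172 and 194.9 FPKM in A and 523 and 237 FPKM in B. *Olig2* had 72.3 ± 6.00 FPKM (SD, n = 2), and *Twist1*, a mesenchymal factor, 39.2 ± 28.5. The libraries of *Olig2* overlapped between the replicates, whereas *Olig1* and *Twist1* were counted as higher in B.

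Of the 10 genes, 4 were counted as higher in B (*Olig1*, *Twist1*, *Twist2* and *Msc*) and 0 as lower, beside 4.78% of all genes counted as higher. The count of *Olig1* rested on single libraries, since its difference of 1.05 became 0.37 without B1 and 0.96 without A1. *Msc* fell below the threshold without B2, at 0.88, and *Twist1* and *Twist2* were counted with any 1 library left out.

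The neuronal members of this list that are named here were low. *Neurog1*, *Neurod1*, *Neurod2* and *Neurod6*, which act in cortical neurons and their precursors, all had a mean below 1 FPKM, from 0.292 FPKM for *Neurod1* to 0.449 FPKM for *Neurog1*. *Neurog2* is not in the tables used here. *Neurod4*, *Nhlh1* and *Bhlhe22*, further members of the list, averaged 1.44, 1.31 and 1.15 FPKM. All 4 *Id* genes stood above 50 FPKM in every library. *Neurog1*, *Neurod1*, *Neurod2* and *Neurod6*, which were named after their values were seen, stood below 1. In *Olig1* and *Olig2*, as in *Id1*, B1 was the highest of the 4 libraries.

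The Hes and Hey repressors are bHLH factors of another class, most of them targets of Notch. Of 11 genes in the list, 10 are in the tables and 8 averaged 1 FPKM or more. *Hes5* had 397 and 400 FPKM in A and 197 and 162 FPKM in B, and was the only gene of this list counted as lower in B, beside 1.42% of all genes. *Hes6* had 255 ± 50.2 FPKM and *Hes1* 54.2 ± 8.41 FPKM (SD, n = 2). Of the 8 genes, 5 were lower in B without overlap and 0 were higher, beside 32% and 28.1% of all genes, with a median difference of -0.35 beside -0.03 over all genes. Beside these, *Id4* was at -0.70, *Id2* at -0.23, *Id3* at -0.01 and *Id1* at 0.32.

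The pocket proteins restrain the cell cycle, and Id2 is known to bind the retinoblastoma protein. *Rb1* had 29.6 and 32.0 FPKM in A and 13.2 and 13.9 FPKM in B and was counted as lower in B, beside 1.42% of all genes. *Rbl2* had 10.7 ± 1.28 FPKM and *Rbl1* 2.24 ± 0.676 FPKM (SD, n = 2). All 3 were lower in B without overlap, as were 32% of all genes. *Id2*, with 161 FPKM, was well above each of them in every library.

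**Figure D3:**
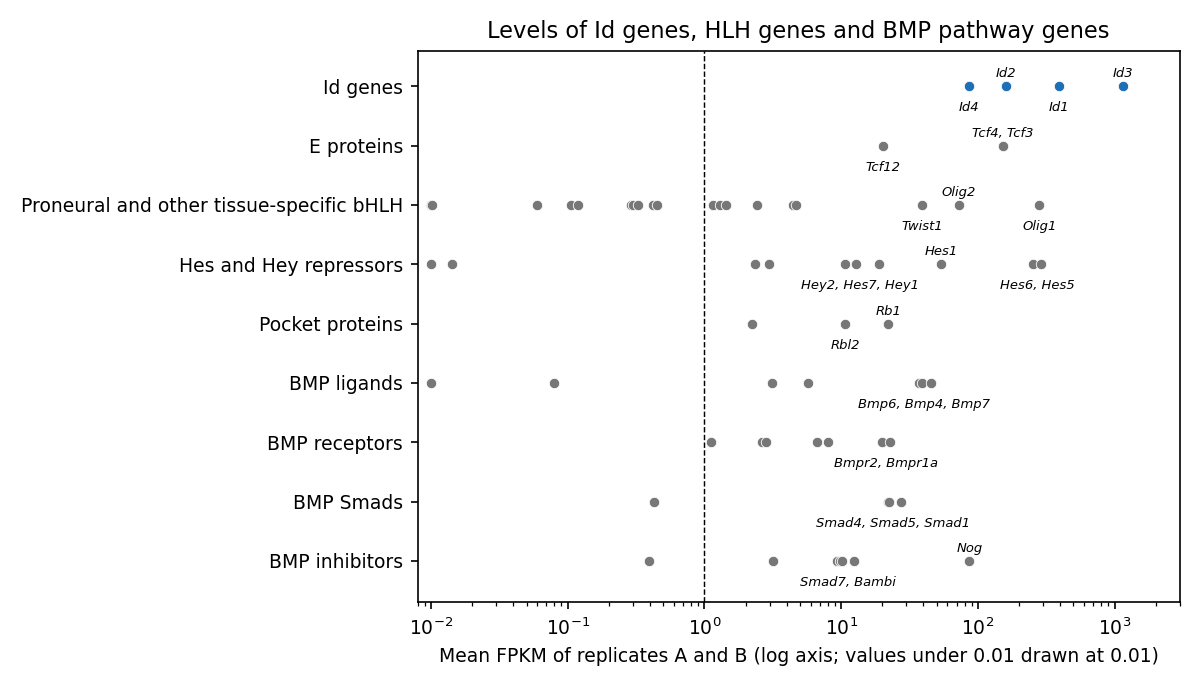
Mean FPKM of replicates A and B on a log axis, 1 point per gene, for the *Id* genes (blue) and 8 lists of related genes (grey, without 1 bHLH gene that is not reported here), with the names of genes at 10 FPKM or more and a dashed line at 1 FPKM. *Id3* at 1161 FPKM lies to the right of every gene drawn for the lists, the highest of which is *Hes5* at 289 FPKM.

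BMP pathway genes were examined because BMP induces *Id* transcription. Of 8 ligand genes, 7 are in the tables and 5 averaged 1 FPKM or more. *Bmp4* had 18.1 and 17.5 FPKM in A and 45.0 and 76.5 FPKM in B. *Bmp7* had 17.9 and 18.9 FPKM in A and 51.9 and 93.9 FPKM in B. *Bmp6* had 16.3 and 15.5 FPKM in A and 24.4 and 93.3 FPKM in B, with B2 far above the rest.

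All 5 ligand genes at 1 FPKM or more were higher in B without overlap, beside 28.1% of all genes. Of these, 4 were counted as differing (*Bmp2*, *Bmp4*, *Bmp6* and *Bmp7*), against 4.78% of all genes in this direction, and 3 were counted without B2, where *Bmp6* fell short with a difference of 0.59. The median difference of the 5 was 1.72. The mesenchymal and meningeal markers moved in the same direction, with a median of 2.17 for their 7 genes, and their part in the levels of the ligands and of *Id1* was not tested.

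Receptors and Smads were nearer to level. *Bmpr1a*, a type I receptor, had 22.7 ± 2.43 FPKM and *Bmpr2*, the type II receptor, 20.0 ± 7.15 FPKM (SD, n = 2). Of 7 receptor genes, 0 were counted as differing, with 3 higher and 3 lower in B without overlap, beside 28.1% and 32% of all genes. *Smad1* and *Smad5*, which carry the BMP signal, had 27.4 ± 0.517 and 22.4 ± 4.28 FPKM, and *Smad4*, their common partner, 22.1 ± 0.943. The third Smad of BMP signalling, *Smad9*, had a mean of 0.427 FPKM.

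Inhibitors of the pathway differed among themselves. *Smad6*, an inhibitory Smad that is itself a BMP target, had 4.76 and 6.07 FPKM in A and 12.5 and 14.3 FPKM in B, and was counted as higher in B. *Smad7*, the other inhibitory Smad, had 11.0 and 11.5 FPKM in A and 9.07 and 9.05 FPKM in B. *Nog*, which encodes the secreted antagonist noggin, had 64.7, 66.3 and 52.4 FPKM in A1, A2 and B1 and 163 FPKM in B2. Of the 6 inhibitor genes at 1 FPKM or more, 1 was counted as differing (*Smad6*), beside 6.2% of all genes. Without overlap 2 were higher and 1 was lower in B, beside 28.1% and 32% of all genes. The second of the higher genes, *Fst*, which encodes follistatin, had 1.83 and 2.11 FPKM in A and 3.73 and 4.92 FPKM in B, and the lower gene was *Smad7*.

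Side by side in the libraries, the ligands and *Id* genes did not share an order. B2 had the highest values of *Bmp4*, *Bmp6* and *Bmp7* and the lowest of *Id2* and *Id4*. For *Id1* and *Id3*, B2 and A1 were nearly tied as the lowest. *Id1* had 324.1 FPKM in B2 and 333.6 FPKM in A1, and *Id3* had 1109.3 and 1110.6 FPKM. The 4 libraries come from 2 cultures, so no correlation was computed.

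**Figure D4:**
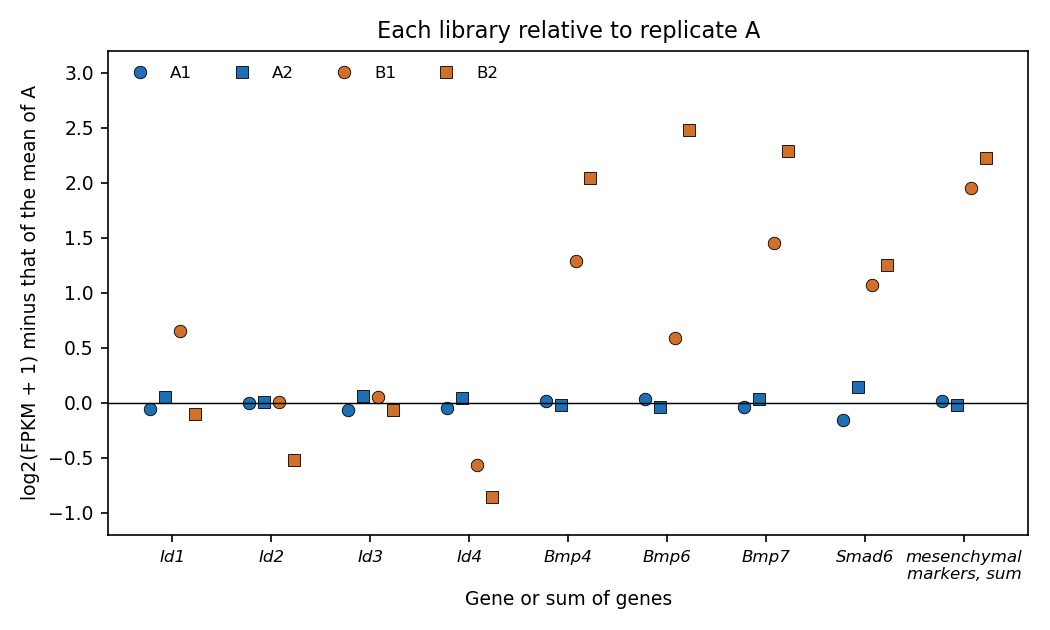
Each library relative to the mean of replicate A on the log2(FPKM + 1) scale for the *Id* genes, 3 BMP ligand genes, *Smad6* and the sum of 7 mesenchymal and meningeal markers. Circles and squares are the first and second technical library, blue for A and orange for B. The orange points of the ligands, *Smad6* and the markers all lie above 0.5, whereas those of the *Id* genes run from -0.86 (*Id4* in B2) to 0.65 (*Id1* in B1).

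Genes most like each member were taken as the 3 with the smallest Euclidean distance of log2(FPKM + 1) over the 4 libraries, among 10478 other genes. This measure weighs level and pattern together, and the 4 libraries form 2 pairs. The nearest genes were picked on these same values, so a pattern shared with the member follows in part from the choice. Nearest to *Id3* were *Ppia* (distance 0.14), *Ptma* (0.17) and *Rpl8* (0.34), which encode cyclophilin A, prothymosin and a ribosomal protein. Nearest to *Id1* were *Rpl10a* (0.32), *Ptov1* (0.37) and *Swi5* (0.43), and *Rpl10a* likewise had its highest value, 514 FPKM, in B1. Nearest to *Id2* were *Podxl2* (0.146), *Vps25* (0.146) and *Srsf11* (0.18), with 119 to 130 FPKM in B2. Nearest to *Id4* were *Coro1c* (0.15), *Jam3* (0.19) and *Gria2* (0.24), and each of these was lower in both libraries of B than in both of A. No *Id* gene was among the 3 nearest of another. Their levels alone fixed this, since neighbouring members were at least 1.58-fold apart in every library. Whether they share a pattern apart from level was not tested.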

How the data were processed

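PolyA-selected mRNA-seq libraries A1, A2, B1 and B2 were analysed, while Start-seq, of which there are 2 samples, was not analysed here. Reads were aligned to rn6 with STAR by the authors. FPKM was calculated by the authors and used as deposited, in tables laid out as StringTie writes them (the methods name Rsubread and DESeq2 for FPKM). The TPM values were also deposited by the authors. The deposited coverage is a signal not scaled for depth. Tool versions are not given in the sources used here. Raw counts were not used, so no counting error is given.

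FPKM was summed over rows of a gene name, except for ranks and likeness, which used 17524 rows with the same name and position in all 4 tables. Likeness was limited to 10478 of these beside the member, with a span of at least 500 bp. Technical libraries were averaged first, so the mean and SD are over 2 biological replicates. With these 2 no test was made. Differences used a pseudocount of 1, a mean of at least 1 FPKM, a threshold of 1 and no overlap between libraries. Differences between libraries may be technical.

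The members, gene lists and motifs were chosen with earlier results of these data known. Every *Id*, E protein and pocket protein gene is named, and list genes at 10 FPKM or more may be, as are the 3 nearest genes and neighbours in rank. List genes below 10 FPKM were named after their values were seen. These are *Bmp2*, *Bmp5*, *Smad6*, *Smad9*, *Fst*, *Sox10*, *Cx3cr1*, *Twist2*, *Msc*, *Neurog1*, *Neurod1*, *Neurod2*, *Neurod4*, *Neurod6*, *Nhlh1* and *Bhlhe22*. The values of 1 bHLH gene are not reported here. Counting was tested on simulated data. Alternatives covered scaling, TPM, thresholds, pseudocounts and left-out libraries. Promoter sequences are from RefSeq (GRCr8) and matched all 4 symbols. Python 3.11.15 with pandas 2.3.3, numpy 2.4.6 and matplotlib 3.10.9 was used.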

Additional observations from a re-analysis of the deposited data

Results flagged for a closer look

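Over the 4 libraries, 34 values were examined for 1 library that lies far from the others, measured as its distance from the next library over the whole range (against Dixon's critical value), and 5 were found. Chance gives about 1 in 20 for independent samples, which these technical pairs are not. *Id1* had 546 FPKM in B1 and 324 to 361 FPKM elsewhere, a gap of 0.832 that only just passes the limit. *Id2* had 121 FPKM in B2 and 173 to 175 FPKM elsewhere, a gap of 0.966. *Bmp6* had 93.3 FPKM in B2 against 15.5 to 24.4 FPKM, and *Nog* had 163 FPKM in B2 against 52.4 to 66.3 FPKM. The depth of B2, as coverage per FPKM, was 6.83 against 22.7 to 24.4. Of the 5, 4 were in B2, and the part of depth or of other cells in them was not tested.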

How the results depend on the processing

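For 24 results, 113 alternatives were computed, of which 108 stayed within the spread between replicates or, for counts, within 1.5 times. The other 5 follow, and their cause was not tested. The mean of *Id3* ranged from 1159 to 1186 FPKM with a replicate or B2 left out, beyond its small SD of 3.36. The count of *Id* genes differing between the replicates was 0, and 1 with a threshold of 0.58 or with no threshold (*Id4* both times). At a mean of at least 5 FPKM, 4 of the bHLH genes and 4 of the BMP receptors remained, against 10 and 7 at 1 FPKM. Leaving out A or B could not move a mean by more than the SD, and the spread set against the differences of the *Id* genes comes from the gaps between technical libraries, so neither tests stability when a library is left out. The difference of *Id1* thus counts as within the spread although it goes from 0.32 to -0.10 without B1. Alternatives added after seeing the data were the counts of differing *Id*, BMP ligand and bHLH genes without B2, those of the last 2 also without B1 and rescaled, and list genes with each library left out. No paired analysis was possible because the mRNA-seq libraries are of 1 condition and no test was made. With 2 replicates and 1 shallow library, differences of the size of *Id4* cannot be told apart from the spread between cultures.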
